A study of Homo sapiens with 6 samples.

Results

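The skipped exons longer than 300 nt in lung adenocarcinoma cells with and without SAM68 overexpression are described here. A skipped exon event is an exon that can be joined to both of its neighbours or left out, and an exon with several pairs of neighbours has several events. Events were kept if the exon was longer than 300 nt and if a mean of at least 10 junction reads per library covered it. This gave 2220 events of 1905 exons in 1606 genes, which was 4.68% of the 47450 skipped exon events with enough reads. The table listed 55919 skipped exon events in all, of which 2598 had an exon over 300 nt. NCI-H1975 is an established human lung adenocarcinoma line. Its cells received either the empty PCDNA3.1 plasmid (control) or PCDNA3.1-SAM68 (SAM68), in each case 2 µg per well with lipofectamine 2000, and were kept for 48 h. There were 3 libraries of each kind of transfection. The lists of values carry no replicate numbers, so libraries are numbered here by their place in the list only.

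Most internal exons of vertebrate genes are short, and the spliceosome is thought to recognise them as units, by pairing the 3′ splice site in front of an exon with the 5′ splice site behind it. Long internal exons are a minority. They include the large coding exons of modular proteins, first and last coding exons with long untranslated stretches, exons that still hold an intron, and "poison" exons, whose inclusion brings an early stop codon and sends the transcript to nonsense-mediated decay. SAM68 is an RNA-binding protein of the STAR family that binds U- and A-rich sequences such as UAAA and takes part in alternative splicing.

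The splice sites of exons on which the values below turn are shown first, as read on the transcript strand of GRCh38. Each 3′ site is given as 20 intron bases and the first 3 exon bases with the final AG of the intron in capitals, and each 5′ site as the last 3 exon bases and 6 intron bases with the GT in capitals. The first pair belongs to the called exons, the next are alternative exons with many reads, coding throughout in NASP and KIF23 and partly coding in INO80E, and NACA and ANK2 are giant exons that were mostly skipped.
KANK2 (chr19:11195556-11195881, minus strand), 3′ site: atcaactttctgttgctcAGggg
KANK2, 5′ site: aagGTacct
TMBIM6 (chr12:49741957-49742280, plus strand), 3′ site: ttctcctctactaagtgtAGacg
TMBIM6, 5′ site: cagGTgagg
NASP (chr1:45607321-45608337, plus strand), 3′ site: catgttctttaaccatgtAGagg
NASP, 5′ site: aagGTaacc
KIF23 (chr15:69440768-69441079, plus strand), 3′ site: tttttctccaatttttctAGctt
KIF23, 5′ site: aggGTtagt
INO80E (chr16:30001212-30001530, plus strand), 3′ site: cccccttctctctggtatAGgaa
INO80E, 5′ site: aagGTaccc
NACA (chr12:56715871-56721459, minus strand), 3′ site: ctccttttgcctttctccAGctg
NACA, 5′ site: aggGTattt
ANK2 (chr4:113353045-113359299, plus strand), 3′ site: gtttttcattcacatcaaAGatg
ANK2, 5′ site: aagGTattt

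Among the long exons, the 2 bases before the exon were AG in 99.84%, and the 2 bases behind it were GT or GC in 99.95%. At the 5′ site, the most common letter at each of the 9 positions over the tested exons gave CAGGTAAGT, and 45.1% of the long exons matched it at 7 or more positions, against 41% of the exons of at most 300 nt. The KANK2 and INO80E sites matched at 6 and 5 positions and the TMBIM6 site at 7. In the 17 intron bases in front of the last 3, pyrimidines made up a mean of 76.1% before long exons and 74.0% before shorter ones. GC content had a median of 52.1% in long and 48.9% in shorter exons. The letters TAAA, searched on the transcript strand only, stood within 100 nt upstream of 38.1% of the long and 41.0% of the shorter exons, and within 100 nt downstream of 38.4% and 42.2%. Neither window beside the KANK2, TMBIM6, INO80E, KIF23 or NACA exon held TAAA. Of the other exons shown above, NASP held it in both windows and ANK2 in the downstream one. These shares describe the letters in the windows, and no binding was measured.

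The libraries held 16951876 to 19737729 junction reads in the skipped exon table, where a read can count in several events, and 752775 to 875031 of them lay in events of long exons. KHDRBS1, which encodes SAM68, was the check of the labels. Scaled to 1000000 junction reads of the table (rpm), its most-read event had 99.6, 105 and 101 rpm in control and 395, 405 and 409 rpm in SAM68. All SAM68 libraries were above all control libraries, the ratio of the means was 3.95, and the exact permutation test gave p = 0.1 (two-sided), the smallest p that 3 against 3 libraries allow. Reads of the plasmid and of the gene cannot be told apart. Of the epithelial, lung, leukocyte, endothelial and fibroblast markers, only KRT8, an epithelial keratin (73.5 to 166 rpm), and NAPSA (0 to 0.295 rpm) had skipped exon events, so the cell type could hardly be checked here.

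The exons ranged from 301 nt to 7113 nt with a median of 496 nt (quartiles 367 nt and 799 nt), and 324 of them (17.01%) were longer than 1000 nt. A single event stood for 1650 exons, and the other 255 exons had up to 6. The longest, in ZNF195, had a mean of 14.5 reads per library and was included at 24.3%. In GENCODE 44, 819 exons (43.0%) were coding throughout, 603 (31.7%) were partly coding, 119 (6.25%) were untranslated, 347 (18.2%) belonged only to non-coding transcripts and 17 were not listed under their gene. Among shorter exons 73.2% were coding throughout, 11.4% partly coding and 6.80% in non-coding transcripts only. Of the partly coding long exons, 387 held the start of the coding sequence without its end, 201 the end without the start and 14 both. The canonical transcript of the gene used 1077 of the long exons (56.5%) and 71.6% of the shorter ones. Among whole coding exons without an inner intron, 342 of 785 long exons (43.6%) had a length that is a multiple of 3, close to the 43.5% of shorter exons.

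Inclusion was measured as percent spliced in (PSI), the share of the form with the exon among both forms once counts are scaled by effective length. For every long exon event the effective length was 260 for inclusion and 130 for skipping. Most long exons were nearly always included. The median PSI was 98.45% in control and 98.29% in SAM68, and 1496 events (67.4%) had a mean PSI over 95%. Between 20% and 80% lay 194 events in 169 genes (8.74%), and 173 events (7.79%) were at 5% or less. Shorter exons had 65.2%, 7.77% and 11.4% of their events in these classes. Inclusion varied little with length among the long exons, since the median PSI lay between 96.8% and 98.5% in each of 6 length classes, and 23.5% to 30.6% of the events of a class had a PSI between 5% and 95%.

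**Figure D1:**
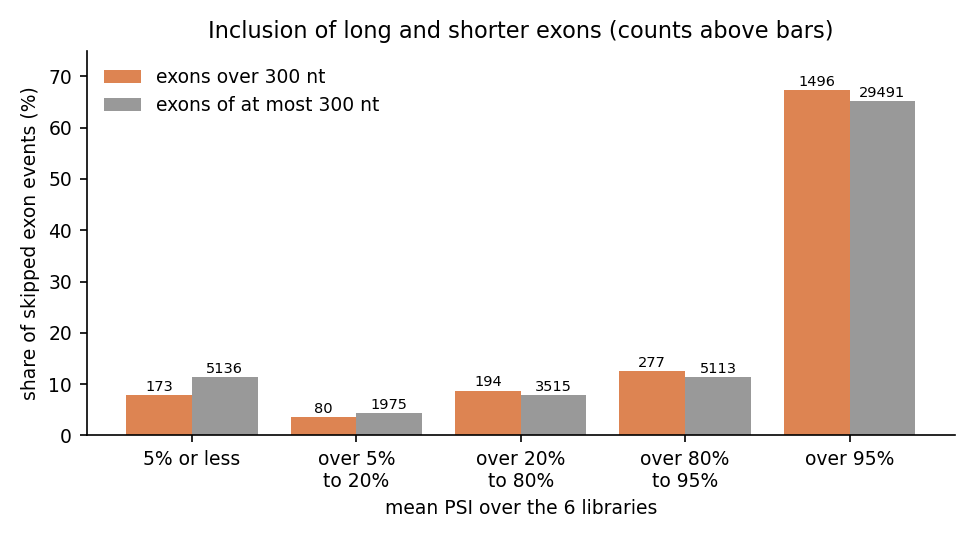
Share of skipped exon events (%, vertical axis) in 5 classes of mean PSI over the 6 libraries (horizontal axis), for exons over 300 nt (orange) and of at most 300 nt (grey), with event counts above the bars. In both sets most events are over 95%, 1496 of the long exons and 29491 of the shorter ones.

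The low PSI values were unevenly spread over the annotation classes. A PSI of 20% or less was found in 26 of 956 events of exons coding throughout (2.72%), in 53 of 143 events of untranslated exons (37.1%, median PSI 62.2%) and in 68 of 378 events of non-coding transcripts (18.0%). Among partly coding exons, it was found in 19 of 496 events of exons with only the coding start (3.83%, median PSI 98.2%) and in 84 of 214 events of exons with only the coding end (39.2%, median PSI 81.9%). These are counts over events, and no test was made on them.

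The inclusion of long exons as a whole differed little between SAM68 and control. The median difference in PSI (SAM68 minus control) was 0.026 points over the 2220 events and 0.036 points over all tested events, and the median absolute difference was 1.27 points and 1.09 points. The quasi-binomial test, with limma moderation of the spread and Benjamini-Hochberg adjustment over all 47450 events, called 2 long exon events at an adjusted p under 0.05 and a difference of at least 10 points, in KANK2 and TMBIM6, both higher in SAM68. Over all tested events 0.0738% were called. At an unadjusted p under 0.05 were 109 long exon events (4.91%, 58 higher and 51 lower in SAM68), against 5.57% of all tested events. In 113 events (5.09%, 62 higher and 51 lower) the PSI of the groups did not overlap, against 5.14% of all tested events. The group means lay at least 10 points apart in 165 events (7.43%), against 6.51% of all tested events. Each library on its own lay more than 10 points from the other libraries of its group in 241 to 283 long exon events. The call depended on how the spread entered the test. One of the other estimates of the shared dispersion called 0 long exon events, against 0.0126% of all tested events, and put 179 (8.06%) at an unadjusted p under 0.05, against 8.56%. The other called 1, against 0.0485%, and put 84 (3.78%) at that p, against 4.22%. By limma on the logit of PSI, 0 were called, against 0.00211%, and 200 (9.01%) were at that p, against 9.44%. When each event kept its own spread, 0 were called, against 0.00211%, and 23 (1.04%) were at that p, against 1.2%. A likelihood ratio test on pooled counts, which ignores the spread, called 40 (1.80%), against 1.73%. In each of these the share of long exons at that p or called by the likelihood ratio test was close to that of all tested events.

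**Figure D2:**
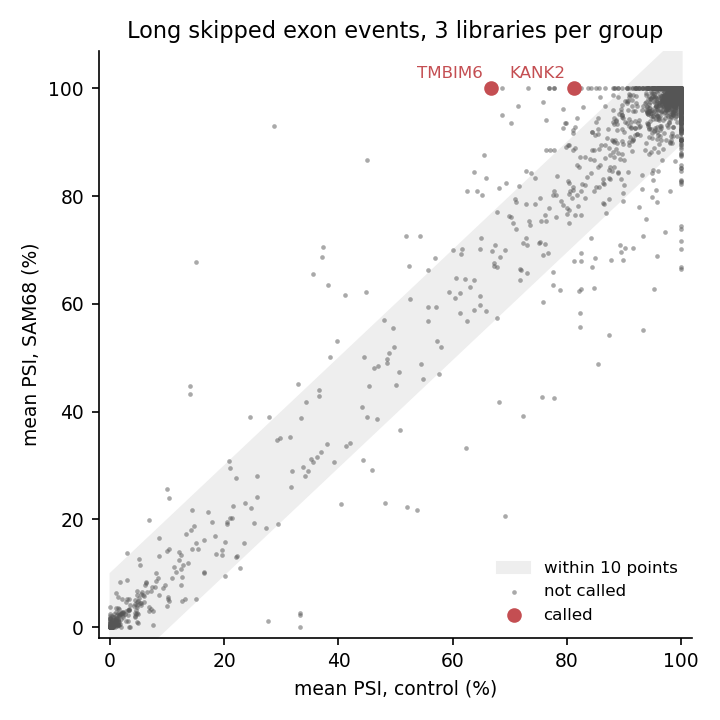
Mean PSI (%) of the long exon events in the 3 control libraries (horizontal axis) and the 3 SAM68 libraries (vertical axis), 1 point per event, with the band of 10 points around equality in grey. The events crowd at the upper right, where inclusion is near 100%, and the 2 called events (red, KANK2 and TMBIM6) lie above the band.

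KANK2 encodes a protein that links talin at focal adhesions with the cell cortex, and its 326 nt exon was annotated as untranslated. Inclusion reads were 76, 60 and 70 in control and 97, 99 and 73 in SAM68. Skipping reads were 10, 7 and 7 in control and 0 in each SAM68 library. The PSI was thus 79.2%, 81.1% and 83.3% in control and 100% in each SAM68 library. The groups did not overlap, and the difference of 18.8 points was called by the quasi-binomial test (adjusted p = 0.037). The 269 SAM68 reads without a skipping read allow a read share of up to 1.12% for skipping, which covers counting error only. The call was lost without any 1 of the 6 libraries (adjusted p 0.062 to 0.219), while the difference stayed between 17.8 and 19.9 points. Without the division by effective length the difference was 10.4 points and still called. The call was also lost under both other ways of estimating the shared dispersion that were tried (adjusted p = 0.066 and 0.108). By limma on the logit of PSI the adjusted p was 0.505, and with the event's own spread it was 0.692. Without a minimum of reads the event was not called. It passed in the likelihood ratio test on pooled counts, which ignores the spread (adjusted p = 4.66e-07).

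TMBIM6 encodes Bax inhibitor-1, a membrane protein of the endoplasmic reticulum, and the 324 nt exon was partly coding. Inclusion reads were 15, 0 and 3 in control and 7, 7 and 0 in SAM68. Skipping reads were 0, 246 and 0 in control and 0 in every SAM68 library. The PSI was therefore 100%, 0% and 100% in control and 100% in SAM68 libraries 1 and 2, and SAM68 library 3 had no read of either form and gave no PSI. The groups overlapped, and the difference of 33.3 points (adjusted p = 0.000153, quasi-binomial test) came from control library 2. Without that library the difference was 0 points (adjusted p = 1). A form with no reads in 1 library and at least 10 in another of the same group occurred in 96 long exon events (4.32%) and in 4.54% of the shorter exon events.

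A further 2 events passed the adjusted p without the limit of 10 points. The 553 nt event of RPL4, a ribosomal protein gene, had 16659 to 20676 junction reads per library. Its PSI was 99.3%, 100% and 98.6% in control and 100%, 100% and 99.75% in SAM68, so that the groups overlapped at a difference of 0.62 points (adjusted p = 1.01e-12). With 1 library left out, this difference ranged from 0.26 points without control library 3 to 0.97 points without control library 2. The 342 nt event of SLX1B-SULT1A4, a read-through gene with a near-identical copy elsewhere, had a PSI of 96.7%, 15.4% and 23.1% in control and 80%, 33.3% and 3.70% in SAM68. Its groups overlapped widely at a difference of -6.03 points (adjusted p = 0.026), and control library 1 held 294 reads where the other 5 held 8 to 18. The difference ranged from -26.5 points without SAM68 library 1 to 19.8 points without control library 1. The event was called, as lower, without control library 2, control library 3 or SAM68 library 1 (adjusted p = 0.0022, 0.0102 and 0.00091), and the sign turned without control library 1 or SAM68 library 3.

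Groups did not overlap in 80 of the 1590 long exon events with a mean of 50 reads or more (5.03%), against 5.28% of all tested events of that depth. For each of them the exact permutation test gives p = 0.1, the smallest it can give. The 12 with the largest differences, 1 per gene, were picked by that difference, so that their values are a description. In addition to KANK2, 9 were higher and 2 lower in SAM68, and apart from KANK2 none passed the adjusted p (0.209 to 0.699, quasi-binomial test). MON1A, part of the exchange factor that activates RAB7 on late endosomes, had a PSI of 51.2%, 69.6% and 70.7% in control and 78.6%, 92.5% and 82.3% in SAM68 for its 486 nt exon 3. IL6ST encodes gp130, the shared receptor subunit of interleukin-6 family cytokines. Its 306 nt exon 4 had a PSI of 86.3%, 79.2% and 72.2% in control and 100%, 100% and 88.4% in SAM68, a difference of 16.9 points that had the lowest adjusted p of the 11, 0.209. It passed the adjusted p without SAM68 library 3 (0.027), the SAM68 library with 7 skipping reads, and in the likelihood ratio test on pooled counts (8.05e-05). Under the other alternatives run on it, the adjusted p lay between 0.161 and 0.801. Of the 11, 7 passed in that likelihood ratio test, which ignores the spread between libraries.

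The event of ANKHD1-EIF4EBP3, a read-through of an ankyrin repeat gene and a translation repressor gene, had the most reads of the group, a mean of 174. Its 759 nt exon had a PSI of 71.6%, 70.6% and 76.5% in control and 80.5%, 87.3% and 86.3% in SAM68. PSI in control was 72.9% ± 3.17 (SD, n = 3) and in SAM68 84.7% ± 3.64 (SD, n = 3), a gap of 11.8 points (adjusted p = 0.699, quasi-binomial test). The event was picked for a large gap without overlap, so a gap above the spread within the groups is no support for it. It is exon 15 of 36 in the canonical transcript, and reads of a read-through cannot be told apart from those of a gene whose exons it shares. The mean PSI was also higher in SAM68 for exons of UBE2V1 (13.8 points), a ubiquitin-conjugating enzyme variant, VSIG10 (12.5 points), FAM210A (10.7 points), a mitochondrial protein gene, OSBPL9 (9.18 points), an oxysterol-binding protein relative, KIAA0319L (9.03 points), the adeno-associated virus receptor, and CUL5 (8.77 points), a scaffold of ubiquitin ligases. In OSBPL9 and CUL5, each library had only 0 to 7 skipping reads. A single library set much of several differences. They were 5.24 points in FAM210A without control library 1, 7.93 points in VSIG10 without control library 2, 5.79 points in OSBPL9 without control library 3 and 5.68 points in CUL5 without SAM68 library 1.

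The lower pair was PIK3C2A and KMT2A. PIK3C2A encodes a class II phosphoinositide 3-kinase, and its 1130 nt exon 2 holds the coding start. The PSI was 100%, 100% and 97.0% in control and 87.2%, 96.2% and 76.2% in SAM68, from 0 to 5 skipping reads per library. KMT2A, a histone methyltransferase gene, had a PSI of 100%, 100% and 95.1% in control and 93.4%, 90.9% and 85.2% in SAM68 for a 324 nt coding exon, from 0 to 4 skipping reads. The difference in PIK3C2A was -12.5 points, and -7.31 points without SAM68 library 3. SAM68 values were the lower ones in both genes, with adjusted p = 0.699 in each.

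**Figure D3:**
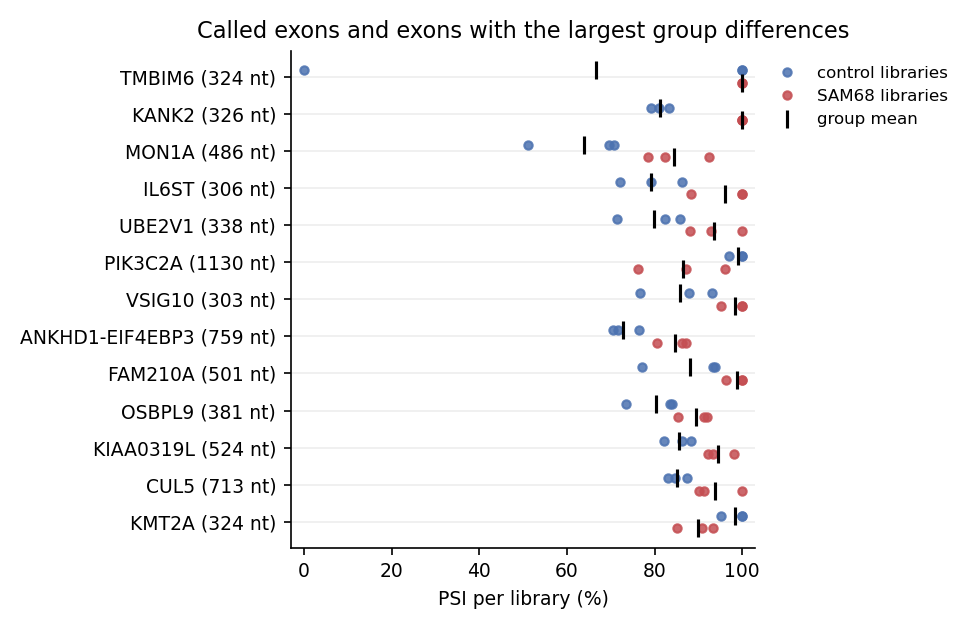
PSI (%) in each control (blue) and SAM68 (red) library of the called exons and the 12 exons with the largest differences among those with at least 50 reads and no overlap, with black bars for the group means. KANK2 separates fully at 100% in SAM68, while the TMBIM6 mean is set by 1 control library at 0%.

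The long exons that were alternative in these cells and had the most reads are described next. The 10 most-read events with a PSI of 20% to 80% had means of 264 to 645 reads per library. None was called, and in 8 of them the groups overlapped. The other 2 (INO80E and RHOC) are described last, and 5.28% of all tested events with a mean of 50 reads or more were without overlap. Over the 10, the group means differed by between 0.38 points in MFF and -10.4 points in NASP, which became 5.78 points without control library 3. Several of these exons keep the reading frame and switch between known protein forms. NASP is a histone chaperone, and its 1017 nt exon 6 lengthens the protein. It had a PSI of 48.0%, 55.1% and 100% in control and 52.0%, 59.0% and 61.0% in SAM68. Control library 3 had 306 inclusion reads and no skipping read, while the other libraries had 113 to 172 skipping reads. KIF23, the kinesin of the central spindle in cytokinesis, had a PSI of 51.8%, 50.1% and 48.5% in control and 52.4%, 45.3% and 37.4% in SAM68 for its 312 nt exon 19, the exon that separates its longer from its shorter form. The SAM68 values reached above and below the control values.

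PAM makes amidated peptide hormones, and its 321 nt exon 15 had a PSI of 57.5%, 58.5% and 50.9% in control and 61.8%, 58.3% and 50.2% in SAM68. NDUFV3 is an accessory subunit of mitochondrial complex I, and its 1095 nt exon 3 had a PSI of 60.1%, 61.8% and 64.6% in control and 73.2%, 67.2% and 53.3% in SAM68. WAC, an adaptor in histone ubiquitination, had a PSI of 72.6%, 71.8% and 75.4% in control and 82.0%, 71.5% and 72.7% in SAM68 for its 309 nt exon 7. In these 3 genes the SAM68 libraries spread more widely than the control libraries and the means differed by 1.09 to 2.38 points. Each of these differences turned when 1 library was left out, to -1.42 points in PAM, -1.94 points in NDUFV3 and -1.16 points in WAC without SAM68 library 1. DEDD2, a death effector domain gene (61.3% and 62.0%), and MFF, the mitochondrial receptor of the fission machinery (76.2% and 76.6%), had group means less than 1 point apart. Both differences turned when 1 library was left out, to -1.14 points in DEDD2 without SAM68 library 2 and -2.16 points in MFF without control library 1. The 2169 nt exon of MFF holds an annotated intron of 1836 nt that was retained at 0.1235%, so that its PSI counts mostly the shorter exons left when this intron is removed.

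In INO80E and RHOC the groups did not overlap. INO80E, a subunit of the INO80 chromatin remodelling complex, had a PSI of 32.7%, 33.5% and 36.7% in control and 39.8%, 45.2% and 40.5% in SAM68 for its 319 nt exon. All SAM68 libraries were higher, by 7.55 points on average (unadjusted p = 0.031, adjusted p = 0.699, quasi-binomial test). A 3446 nt exon of INO80E, with a PSI of 12.1%, starts at the same 3′ splice site. Reads of the junction in front can therefore belong to either exon. RHOC, a small GTPase of the actin cytoskeleton, had a PSI of 35.8%, 35.9% and 39.2% in control and 33.0%, 30.5% and 33.9% in SAM68 for an untranslated 1153 nt exon that holds an annotated intron. Its SAM68 libraries were lower by 4.50 points (adjusted p = 0.699), and neither event was called. For LINC00963, a long non-coding RNA, the means were 44.1% and 40.8% and the groups overlapped.

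**Figure D4:**
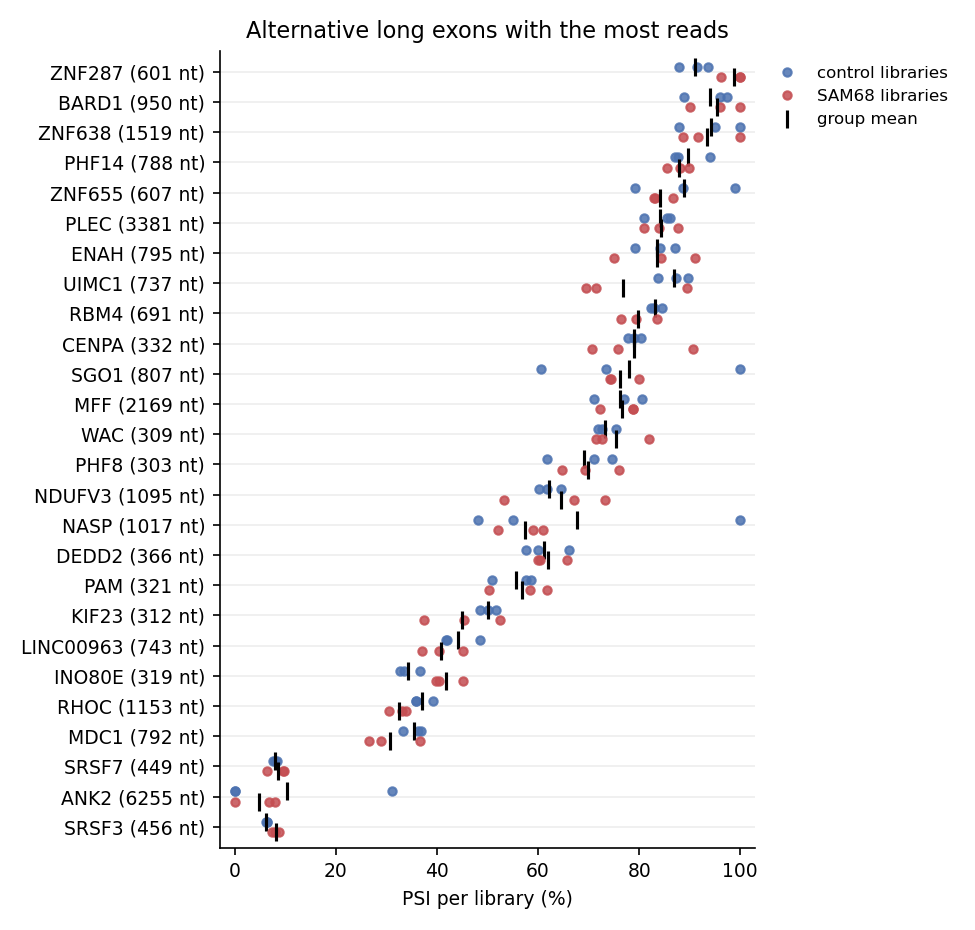
PSI (%) in each control (blue) and SAM68 (red) library of the most-read alternative long exons and of the most-read exons of 6 gene lists, ordered by mean PSI, with black bars for the group means. Levels run from 7.16% in SRSF3 to 94.9% in ZNF287, and the groups of most exons overlap.

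The splicing regulators and RNA-binding proteins held 56 events of 38 genes. Their median PSI was 98.9%, against 98.3% over all tested events, and none was called. At an unadjusted p under 0.05 were 8 (14.3%), against 5.57% of all tested events. The groups did not overlap in 3 events higher and 1 lower in SAM68 (7.14% together), against 5.14%. Several of these events share a gene, and the list was not tested as a whole. Of these proteins, SRSF3 and SRSF7, SR proteins that bind exonic enhancers, carry poison exons, and theirs were among the 3 most-read alternative events of the list. The exon starts and the in-frame stop codons are shown because they set what inclusion yields. Each sequence starts 20 bases before the exon and ends with the first in-frame stop codon in capitals, 31 coding bases into the SRSF3 exon and 25 into the SRSF7 exon.
SRSF3 (chr6:36599801-36599854, plus strand): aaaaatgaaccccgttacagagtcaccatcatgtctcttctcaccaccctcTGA
SRSF7 (chr2:38749319-38749366, minus strand): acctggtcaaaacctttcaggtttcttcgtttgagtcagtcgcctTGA
The SRSF3 exon of 456 nt had a PSI of 6.30%, 6.11% and 6.30% in control and 8.04%, 8.82% and 7.41% in SAM68, with 1419 to 1660 reads per library. All SAM68 values were higher, by 1.85 points on average (unadjusted p = 0.0028, adjusted p = 0.406, quasi-binomial test), which passed neither limit of the call. The SRSF7 exon of 449 nt had a PSI of 7.53%, 7.94% and 8.41% in control and 6.45%, 9.63% and 9.56% in SAM68, and its groups overlapped. Reads of transcripts removed by decay are not seen, so these PSI values are shares of the RNA present.

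RBM4, an RNA-binding splicing regulator, had a PSI of 83.2% ± 1.13 (SD, n = 3) in control and 79.7% ± 3.55 (SD, n = 3) in SAM68 for its 691 nt exon 2, with overlap between the groups. Other members of the list were picked after their values were seen, for their unadjusted p. Those described are all higher in SAM68, and the 1 event of the list that was lower without overlap is not among them. RBM6, another RNA-binding protein, had a 1551 nt and a 1279 nt form of the same exon, which share their 5′ site. The longer form had skipping reads of 0, 11 and 19 in control and 0 in each SAM68 library, and a PSI of 100%, 66.7% and 53.1% in control and 100% in SAM68. Control library 1 was like the SAM68 libraries, and the adjusted p was 0.085 for each form. Both forms were called without control library 1 (adjusted p = 0.021), but they have the same neighbours and the same skipping reads, so these are not separate results.

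MBNL1, a splicing regulator known from myotonic dystrophy, had a PSI of 94.3%, 97.4% and 92.6% in control and 99.4%, 100% and 98.9% in SAM68 for a 963 nt exon. CLK4, a kinase of SR proteins, had a PSI of 1.27%, 1.96% and 0% in control and 5.41%, 6.06% and 7.41% in SAM68 for an 836 nt exon, from 0 to 4 inclusion reads per library. The groups overlapped in neither gene, and the adjusted p values were 0.45 and 0.699.

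The other gene lists held no called event. Zinc finger genes had 71 long exon events in 57 genes with a median PSI of 97.5%, 2 of them at an unadjusted p under 0.05 (2.82%, against 5.57% of all tested events), and the groups did not overlap in 2 events higher and 1 lower in SAM68 (4.23%, against 5.14%). The 601 nt exon 2 of ZNF287 was at 93.7%, 91.5% and 87.9% in control and 100%, 100% and 96.3% in SAM68, while ZNF655 and ZNF638 overlapped between groups. DNA repair genes had 18 events in 14 genes. Of these, 0 were at an unadjusted p under 0.05 (against 5.57% of all tested events) and none was without overlap (against 5.14%). MDC1, which binds phosphorylated histones at DNA breaks, was the least included of those named. Its 792 nt exon 8 had a PSI of 33.3%, 36.8% and 36.3% in control and 36.6%, 26.6% and 29.0% in SAM68. UIMC1, which brings BRCA1 to ubiquitinated chromatin, was at 83.7%, 89.7% and 87.2% in control and 71.4%, 89.5% and 69.6% in SAM68, and BARD1, the partner of BRCA1, at 94.1% and 95.4%, with overlap in both.

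Chromatin genes had 58 events in 40 genes, of which 2 were at an unadjusted p under 0.05 (3.45%, against 5.57% of all tested events), and 1 was higher and 2 lower without overlap (5.17%, against 5.14%). The 303 nt exon 13 of PHF8, a histone demethylase, was at 69.1% ± 6.63 and 70.0% ± 5.61 (SD, n = 3 each), and PHF14 at 89.6% and 87.8%. Genes of the centrosome and spindle list, which took in every symbol that starts with CCDC, had 42 events in 34 genes. Of these, 1 was at an unadjusted p under 0.05 and 1 was higher without overlap (2.38% each, against 5.57% and 5.14%). In CENPA, the centromeric histone, the means of the 332 nt exon were 79.0% in both groups, with an SD of 1.26 in control and 10.5 in SAM68. SGO1, the protector of centromeric cohesin, had a PSI of 100%, 60.6% and 73.5% in control and 74.5%, 74.2% and 80% in SAM68 for its 807 nt exon 6, so that the control libraries alone spanned the SAM68 values. Its difference of -1.81 points became 9.17 points without control library 1.

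Cytoskeletal genes and cytolinkers had 21 events in 17 genes, with 1 at an unadjusted p under 0.05 (4.76%, against 5.57% of all tested events) and 1 event in each direction without overlap (9.52% together, against 5.14%). The 3381 nt exon 31 of PLEC, which encodes the rod of the cytolinker plectin, was at 81.1%, 85.4% and 86.1% in control and 87.8%, 81.0% and 84.0% in SAM68, from 576 to 866 reads per library. Its group means differed by 0.07 points, by -1.68 points without SAM68 library 1 and by 1.69 points without SAM68 library 2. ENAH, an actin regulator, had means of 83.5% in both groups. The giant 6255 nt exon 38 of ANK2, known from neurons, had a PSI of 0%, 31.0% and 0% in control and 6.67%, 0% and 7.94% in SAM68, at 11 to 34 reads per library. Its inclusion was low in all libraries except control library 2, where 9 inclusion reads stood beside 10 skipping reads. The difference of -5.48 points became 4.87 points without that library.

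The longest exons with a mean of at least 50 reads were at the extremes of inclusion. The 5916 nt exon 3 of SON, a nuclear speckle protein, and the 5042 nt exon 4 of AKAP12, a kinase anchoring scaffold, hold much of the coding sequence of their genes. SON was at 99.3% ± 0.94 in control and 99.6% ± 0.37 in SAM68, and AKAP12 at 99.3% ± 0.56 and 99.8% ± 0.29 (SD, n = 3 each). The 6566 nt event of ZC3H11A, an mRNA export factor, was at 95.1% and 98.6%, and the 5735 nt event of DNAJB6, a chaperone partner, at 97.0% and 98.7%. The ZC3H11A exon is untranslated and holds an annotated intron, so its PSI does not show that all 6566 nt were kept. The 5589 nt exon 3 of NACA, which is known to be used in muscle, was skipped, with 2, 1 and 0 inclusion reads beside 6413, 7216 and 6610 skipping reads in control. The SAM68 libraries had 0 inclusion reads of 18453, which allows a read share of up to 0.0163%. The groups of all 5 exons overlapped.

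Many of the long exons hold an annotated intron, and their PSI does not say whether that intron was kept. This was so for 352 of the 1905 exons (18.5%), against 0.277% of the shorter exons. Their share was 60.8% among long exons of non-coding transcripts and 4.15% among those coding throughout. The outer junctions that give the inclusion reads are shared with the shorter exons that result when the inner intron is removed. For 218 exons the retained intron table listed the same exon as its unspliced form, and 182 of them had an intron event with a mean of at least 10 reads. As skipped exons these had a median PSI of 99.3%, but the retained form made up a median of 1.44% (quartiles 0.368% and 4.74%). It was at 10% or less in 149 exons (81.9%) and at 50% or more in 22. The median retained share was 1.30% in control and 1.16% in SAM68, and the median difference was -0.087 points.

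**Figure D5:**
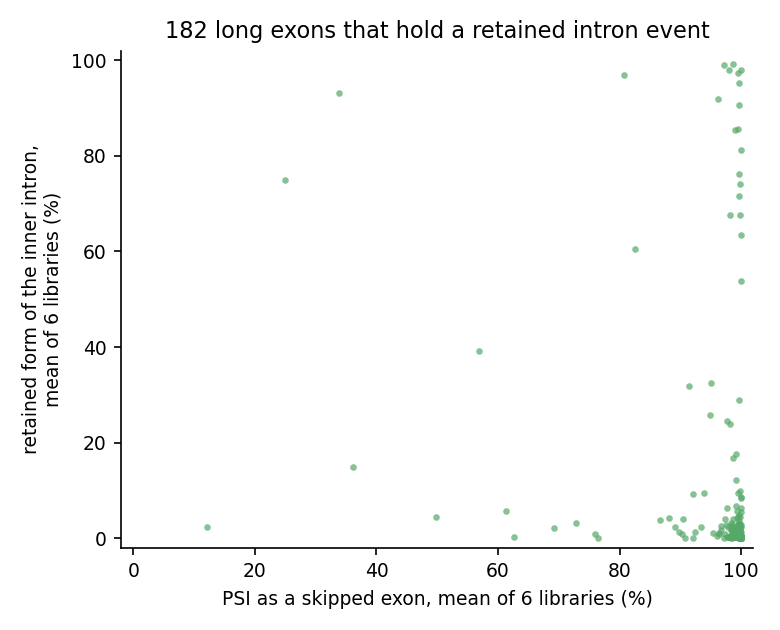
Retained form of the inner intron (%, vertical axis) against the PSI of the whole exon as a skipped exon (%, horizontal axis) for the 182 long exons with enough reads for both, each a mean of the 6 libraries. Most points lie at the lower right, where the outer junctions are used and the inner intron is spliced.

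Of the events named above, the exons of UBE2V1, RPL4, MFF, RHOC, LINC00963, ZNF655, ZC3H11A and NACA held an annotated intron. The retained form made up 0.00951% in RPL4 and 3.73% in ZNF655. Further exons, picked after their values were seen, show both kinds. The 1743 nt exon of SRSF5, an SR protein, had a PSI of 99.8% as a skipped exon, while its inner intron of 1215 nt was retained at 11.4%, 11.2% and 12.3% in control and at 8.85%, 8.31% and 7.58% in SAM68. The groups did not overlap, as in 18 of the 182 inner introns (9.89%), against 8.38% of all retained intron events with a mean of 10 reads or more, and no test was run. In another SRSF5 exon, of 1359 nt, an inner intron of 259 nt was retained at 84.3%, 76.3% and 85% in control and at 79.8%, 71.0% and 60.7% in SAM68, with overlap. The 345 nt exon of RPL13A, a ribosomal protein gene, was likewise at 99.98%, with 0.036% of the retained form. By contrast, the 383 nt exon of YIPF3, a Golgi membrane protein, had its 260 nt inner segment retained at 98.0%, so that the long form was the usual one.

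At the edges of the selection, 18 events had an exon of 301 nt (median PSI 99.2%) and 9 had one of 300 nt (median PSI 89.95%). The most-read event at 300 nt, in CPSF2, had a PSI of 99.95%. Just above the limit on reads, 11 long exon events with means of 10 to 10.3 reads had a median PSI of 69.0%, and just below it 11 events with 9.5 to 9.83 reads had 94.1%.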

How the data were processed

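RNA from 3 control and 3 SAM68 libraries of NCI-H1975 cells was sequenced by the authors as paired-end reads. The submitters' processing notes name CASAVA 1.4, fastp 0.20.0, HISAT2 2.1.0 and GRCh38, and the study's methods name rMATS, whose version is not given in the sources used here. The authors deposited, per event, raw counts of junction reads for both forms, listed 3 to a group, and an effective length per form. Inclusion levels, p-values, FDR and level differences of the authors' own comparison were not used, and neither were the tables of alternative 3′ and 5′ splice sites and mutually exclusive exons. The first list was taken as control, because the study's plot of PKM gives its levels to the control libraries.

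PSI was computed from the counts and averaged over libraries with reads. All 47450 skipped exon events with 10 or more reads per library on average were fitted by a quasi-binomial model with the group as its term. Dispersions were moderated by the squeezeVar function (R 4.3.3, limma 3.58.1) and kept at 1 or above, followed by an F test and Benjamini-Hochberg adjustment. The moderation gave every event the same dispersion, 2.30, which is too small for events whose libraries vary more. Of 3 ways to count the degrees of freedom of the dispersions that were tried on these data, the one that leaves out groups holding a single form was kept, because it gave the results of an earlier analysis of the same table. It called the most events of the 3, 35 over the whole table against 23 and 6. Events were called at an adjusted p under 0.05 and a difference of at least 10 points. Single values were compared by exact permutation tests, two-sided. A check on simulated counts used the same dispersion for every event and does not cover events whose libraries vary more. The study describes 3 biological replicates per group without saying how they were grown apart, and the spread among these libraries may be technical. The quasi-binomial p-values set each difference against the shared dispersion of 2.30, not against the spread among the event's own libraries. Coordinates of the files were used on GRCh38, and 9848 of 9872 gene identifiers were found in GENCODE 44, from which exon classes and exon numbers of the canonical transcript were taken.

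Named events are those called, the 12 largest differences without overlap at 50 or more reads, the 5 longest at 50 or more reads, the 10 most-read at a PSI of 20% to 80%, the 3 most-read per gene list at 5% to 95%, and the events at the limits, of which 1 is not reported here. The exons and gene lists were chosen with earlier results of these data known. The zinc finger, chromatin, splicing regulator and centrosome lists were made from the starts of gene symbols, so they can hold genes of other function. Reads carry no molecular identifiers, so limits for a count of 0 (3 reads) cover counting error only.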

Additional observations from a re-analysis of the deposited data

How the results depend on the processing

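The count of called long exons was 2 with a minimum of 20 reads, with 1 event per exon and without division by effective length, and 3 with a limit of 5 points. Without that division PSI itself shifted, by construction. The 12 largest differences without overlap then measured 4.55 to 13.9 points in size, 11 of them smaller by over 1.5 times, and 21 of 39 other PSI values moved by more than the spread between libraries, such as SRSF3 from 7.16% to 13.4%, SRSF7 from 8.25% to 15.2% and RHOC from 34.7% to 51.5%. It was 0 with limma on the logit of PSI, 0 when each event kept its own spread, 40 with a likelihood ratio test of the pooled counts, 1 without a minimum of reads, 4 without a limit on the difference, and 0 for exons over 500 nt. Leaving out each library in turn gave 0 to 4 called events and 103 to 125 at an unadjusted p under 0.05, where limma on the logit of PSI gave 200. Another 2 estimates of the shared dispersion were added after seeing the data. Counting the degrees of freedom of all libraries gave 0 called events and 179 at an unadjusted p under 0.05, and taking the prior from events with both forms in both groups gave 1, TMBIM6, and 84. The 4 events were seen without SAM68 library 1, all lower in SAM68, in genes other than KANK2 and TMBIM6, and the 0 without SAM68 library 2. The difference of TMBIM6 became 0 points without control library 2 (adjusted p = 1) and ranged from 0 to 50 points over the libraries left out. The ratio of KHDRBS1 reads stayed between 3.90 and 4.01. A count test with edgeR was listed as an alternative and was not run. No paired analysis was possible because the lists print no replicate numbers. Low numbers of skipping reads limit the PSI of most exons, whose median depth was 95.3 reads per library, and libraries of the same group often differed by more than 10 points.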
